A study of Mus musculus with 18 samples.

Results

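The genes described here encode the matrix metalloproteinases (MMPs), the ADAMTS proteases, the ADAMTS-like proteins, the tissue inhibitors of metalloproteinases (TIMPs) and Reck. They were taken by name among protein-coding genes: all Mmp genes with a number, all Adamts and Adamtsl genes, Timp1 to Timp4 and Reck. The rule on names uses no measured values, but the family was chosen with earlier results of these data known. This gave 51 genes, which were 22 MMPs, 19 ADAMTS proteases, 5 ADAMTS-like genes, 4 TIMPs and Reck, out of 34385 genes in the knockdown table and 34396 in the overexpression table, of which 21826 in each were protein-coding. Their mRNA was measured in EGFP-positive cells of mouse retinal explants from ICR mice, an outbred stock. Retinas were electroporated at postnatal day 0.5 with an EGFP plasmid and the plasmid under study and were kept for 3 days in culture, after which EGFP-positive cells were sorted and 1 ng of RNA was amplified for sequencing. Nmnat1 and Nmnat2 encode enzymes of NAD synthesis, and the study asked what changes when either is knocked down or overexpressed. Knockdown groups carried a plasmid expressing shRNA to Nmnat1 or to Nmnat2, and were set against a plasmid expressing a scramble shRNA. Overexpression groups carried a plasmid expressing Nmnat1 or Nmnat2, and were set against the empty vector. All 6 groups, controls included, were thus electroporated, cultured and sorted, and each held 3 libraries. The sort takes every cell type that the electroporation reached, so that a group is a mixture of retinal cells and not a cell type. The title of 1 Nmnat2 knockdown sample and of 1 Nmnat2 overexpression sample names Nmnat3, whereas the other labels of these samples name Nmnat2 and were followed. The labels do not tie the 3 libraries of a group to separate litters, so p-values measure the spread between libraries, which may be technical.

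MMPs are zinc-dependent proteases that cut collagens, laminins and other proteins of the matrix and of the cell surface. Most are secreted as inactive precursors, while the membrane-type members stay anchored at the cell surface. ADAMTS proteases carry thrombospondin repeats and are secreted. Members of their hyalectanase group cut aggrecan, brevican, neurocan and versican, the proteoglycans of the neural matrix, and those of the procollagen group remove the N-terminal propeptide of collagens. ADAMTS-like proteins have the same ancillary domains without the protease. TIMPs block MMPs and, in the case of TIMP3, also ADAMTS proteases, and RECK is an inhibitor anchored to the membrane. In the best known activation route MMP14 at the cell surface, with TIMP2 as a bridge, activates the precursor of MMP2. In the developing retina these proteins are known for roles in axon growth, vessel growth and turnover of the matrix.

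Levels are given in parts per 1000000 (ppm), the share of a library's summed length-scaled signal, so that levels can be compared between genes. For a gene of 1 kb effective length, 1 ppm stood for about 12.6 to 21.1 reads in the knockdown libraries and 11.5 to 17.0 in the overexpression libraries. The column totals, in units of 1000000, ran from 14.4 to 29.6 in the knockdown table and from 17.3 to 26.2 in the overexpression table. Genes above 0 numbered 24523 to 28953 and 25752 to 30718. Nmnat1 was at 7.80 ± 0.642 ppm after Nmnat1 knockdown and 19.0 ± 1.99 ppm with scramble (SD, n = 3; exact permutation p = 0.1, the smallest that 3 against 3 can give, two-sided). Nmnat2 was at 0.927 ± 0.390 ppm after Nmnat2 knockdown and 2.96 ± 2.91 ppm with scramble (exact permutation p = 0.3, two-sided), the scramble libraries spreading from 0.624 to 6.22 ppm, so that a depletion was not shown. The Nmnat2 knockdown libraries, at 0.503 to 1.27 ppm, lay below the Nmnat1 knockdown libraries, at 1.49 to 2.71 ppm. The overexpressed genes reached 19325 ± 7372 ppm (Nmnat1) and 21581 ± 1072 ppm (Nmnat2). In a principal component analysis 1 Nmnat2 knockdown library, N2_2, scored 128.7 on component 1, against scores of the remaining 8 knockdown libraries between -31.2 and -5.83. The share of mitochondrial transcripts was also highest in N2_2, at 6.51%. In the overexpression table the 3 libraries numbered 1 lay on 1 side, at -91.4 (Nmnat2 overexpression), -33.9 (Nmnat1 overexpression) and -24.5 (empty vector), and the other 6 between 4.14 and 50.0. Results are therefore given with and without N2_2, and with and without the libraries numbered 1.

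With a minimum of 1 ppm in 3 of 9 libraries, 35 of the 51 genes were measured in each table, and 33 of them in both. Mmp19 and Mmp27 were measured only in the knockdown table, and Adamts19 and Timp1 only in the overexpression table. The remaining 14 were not measured in either: Mmp1b, Mmp3, Mmp7, Mmp10, Mmp13, Mmp20, Mmp21, Mmp23, Mmp25, Adamts8, Adamts13, Adamts14, Adamts20 and Adamtsl5. The highest level of any of these 14 in any library was 2.88 ppm (Adamts20). Because a gene can pass this minimum through the group in which it is high, the measured genes are not all genes of the family.

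Mmp14 and Timp2, the protease and the inhibitor of the activation route described above, were the 2 highest genes of the family in both controls. Mmp14 (chr14:54431612-54445364, plus strand, GRCm38) encodes MT1-MMP, a membrane-type protease. Its level was 45.2, 63.5 and 65.7 ppm in the scramble libraries and 66.4, 75.9 and 65.3 ppm in the empty vector libraries. Timp2 (chr11:118301069-118355740, minus strand, GRCm38) stood at 24.6, 31.1 and 26.3 ppm with scramble and 29.4, 38.5 and 36.9 ppm with the empty vector. Libraries of Mmp14 lay above those of Timp2 in both controls, with no overlap. Next in scramble cells came Mmp2, which encodes gelatinase A, at 18.9 ± 4.23 ppm (SD, n = 3), and Mmp12, which encodes macrophage elastase, at 15.9 ± 1.30 ppm, whose ranges overlapped. In empty vector cells the next were Adamts1, a hyalectanase, at 19.0 ± 2.12 ppm and Mmp2 at 18.9 ± 3.53 ppm, which overlapped as well. Every other gene averaged under 14 ppm in both controls. Tables were normalized apart, so that a difference between scramble and empty vector cannot be read as a difference between the plasmids.

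**Figure D1:**
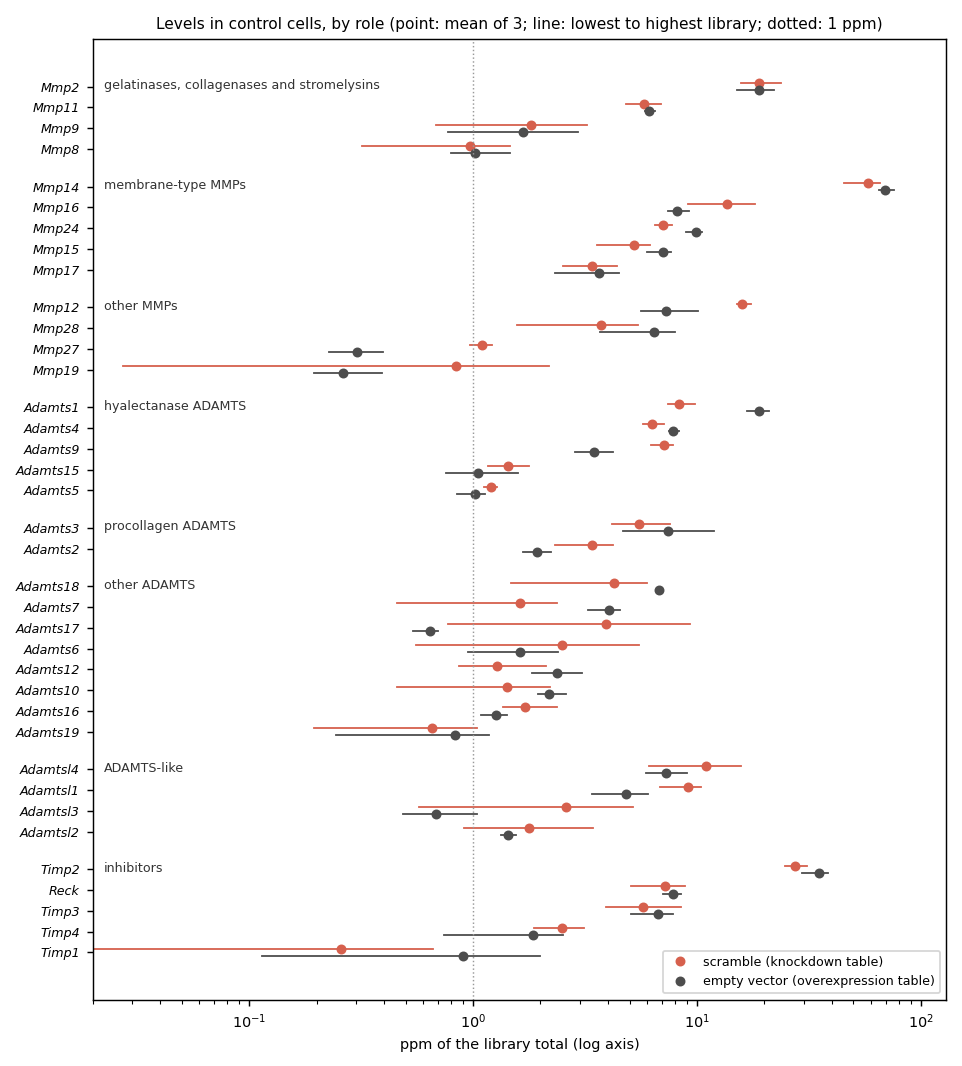
Levels of the 37 genes measured in either table, by role, in scramble and empty vector cells (x axis: ppm of the library total, log axis; points: means of 3 libraries; lines: lowest to highest library; dotted line: 1 ppm). Mmp14 averaged 58.1 ppm in scramble and 69.2 ppm in empty vector cells and Timp2 27.4 and 34.9 ppm, while most others lay under 10 ppm; Timp1 was at 0 in 1 scramble library, so that its line runs off the axis.

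The gelatinase and stromelysin group was carried by few genes: Mmp2, Mmp8 (neutrophil collagenase), Mmp9 (gelatinase B) and Mmp11 (stromelysin-3) were measured of 9. Mmp11 averaged 5.83 ± 1.05 ppm in scramble cells and 6.13 ± 0.344 ppm in empty vector cells, and Mmp9 1.81 ± 1.30 and 1.67 ± 1.12 ppm (SD, n = 3 each). Of the 6 membrane-type genes 5 were measured, among them Mmp16 at 13.6 ± 4.53 and 8.12 ± 0.954 ppm and Mmp24, which is known for expression in the nervous system, at 7.02 ± 0.625 and 9.88 ± 0.874 ppm in scramble and empty vector cells. Of 7 hyalectanases, Adamts1, Adamts4, Adamts5, Adamts9 and Adamts15 were measured. Of 3 procollagen proteases, Adamts2 and Adamts3 were. At the low end, Adamts16, Adamts10, Adamts12 and Adamtsl2 all averaged under 3 ppm in both controls.

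RefSeq start regions of 36 of the 51 genes were at hand, as 39 windows of 300 bases (250 before the transcription start and 50 after it, GRCm38.p6). They were searched for the AP-1 motif TGANTCA and the GC box GGGCGG, both on either strand, and for the TATA box TATAAA on the gene's strand. The AP-1 motif was found in 7 of the 39 windows (17.9%), against 7.81% of 32851 windows of all genes. These 7 windows all belonged to Mmp genes on chromosome 9 (Mmp1b, Mmp3, Mmp7, Mmp10, Mmp12, Mmp13 and Mmp20). Of these genes only Mmp12 was measured, so the percentage does not describe the measured genes. GC boxes were in 23 windows (59.0%, against 35.7% of all) and TATA boxes in 10 (25.6%, against 8.32%). A match describes letters only and is not evidence of binding. The windows of 4 genes on which the results below turn are shown, to set the 2 windows of Mmp12, without GC boxes, beside GC-rich ones, with motif letters in capitals. The upstream window of Mmp12 held none of the 3 motifs, and the other an AP-1 motif and a TATA box. No windows of Mmp2 and Adamts4 were at hand, so these 2 genes were not searched.
Mmp12, upstream window (chr9:7344147-7344446, plus strand; no motif): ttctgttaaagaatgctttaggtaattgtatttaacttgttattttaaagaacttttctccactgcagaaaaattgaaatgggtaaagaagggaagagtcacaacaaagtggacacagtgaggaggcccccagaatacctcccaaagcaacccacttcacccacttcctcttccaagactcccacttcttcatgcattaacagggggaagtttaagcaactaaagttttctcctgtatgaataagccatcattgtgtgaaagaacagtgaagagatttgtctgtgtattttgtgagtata
Mmp12, downstream window (chr9:7347124-7347423, plus strand; 1 AP-1 motif and 1 TATA box): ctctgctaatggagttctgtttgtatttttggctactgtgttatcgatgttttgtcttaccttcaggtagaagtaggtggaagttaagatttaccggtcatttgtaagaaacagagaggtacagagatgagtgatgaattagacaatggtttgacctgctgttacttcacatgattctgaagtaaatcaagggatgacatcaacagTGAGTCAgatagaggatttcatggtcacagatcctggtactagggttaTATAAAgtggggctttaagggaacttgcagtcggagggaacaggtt
Mmp14 (chr14:54431348-54431647, plus strand; 2 GC boxes): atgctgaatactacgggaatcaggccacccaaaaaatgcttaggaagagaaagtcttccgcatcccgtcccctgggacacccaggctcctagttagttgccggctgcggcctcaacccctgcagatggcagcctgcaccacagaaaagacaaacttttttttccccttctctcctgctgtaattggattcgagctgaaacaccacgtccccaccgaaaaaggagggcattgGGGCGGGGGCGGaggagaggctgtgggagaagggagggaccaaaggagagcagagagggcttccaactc
Adamts1 (chr16:85803064-85803363, minus strand; 3 GC boxes and 1 TATA box): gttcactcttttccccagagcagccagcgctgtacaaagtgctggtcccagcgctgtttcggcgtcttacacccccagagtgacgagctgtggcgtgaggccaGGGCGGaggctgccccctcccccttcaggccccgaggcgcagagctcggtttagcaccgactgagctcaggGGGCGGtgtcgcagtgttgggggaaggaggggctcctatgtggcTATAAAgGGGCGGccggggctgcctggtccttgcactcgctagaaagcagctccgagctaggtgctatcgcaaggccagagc
Reck (chr4:43875280-43875579, plus strand; 3 GC boxes): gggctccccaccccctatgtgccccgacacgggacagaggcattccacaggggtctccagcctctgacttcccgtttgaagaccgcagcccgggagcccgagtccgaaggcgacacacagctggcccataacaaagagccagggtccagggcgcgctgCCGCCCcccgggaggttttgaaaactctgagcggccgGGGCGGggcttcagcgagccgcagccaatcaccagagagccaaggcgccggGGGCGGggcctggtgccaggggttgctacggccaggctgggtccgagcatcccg
Of these, the Mmp12 windows were 38.7% and 40.7% G or C, and those of Mmp14, Adamts1 and Reck 56.0%, 64.7% and 69.3%.

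Mmp2 had the largest fold change of the 35 measured genes between the knockdown groups. Mmp2 (chr8:92827291-92853420, plus strand, GRCm38) encodes gelatinase A, a secreted protease that cuts denatured collagen and basement membrane collagen. It stood at 110.4, 102 and 93.1 ppm in the Nmnat1 knockdown libraries. The Nmnat2 knockdown libraries had 8.05, 0.106 and 7.92 ppm, and the scramble libraries 23.7, 15.7 and 17.5 ppm. All 3 Nmnat1 knockdown libraries lay above every scramble library and all 3 Nmnat2 knockdown libraries below, with N2_2 close to 0. Between the knockdown groups the log2 fold change (Nmnat1 over Nmnat2 knockdown, on log2(ppm + 1)) was 4.52 ± 0.67 (SE, n = 3 each, limma, adjusted p = 0.00832), a ratio of mean ppm of 19.0. Mmp2 was the only one of 35 genes past an adjusted p of 0.05 in this comparison, in which 2.06% of all genes were called. Without N2_2 the log2 fold change was 3.51 ± 0.19 (limma, adjusted p = 4.11e-06). The call was lost when any of the 3 Nmnat1 knockdown libraries was left out (limma, adjusted p of at most 0.0567) and in a fit on these 2 groups alone (0.0556), with the fold change between 4.46 and 4.58.

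Against scramble, Mmp2 averaged 102 ± 8.63 ppm after Nmnat1 knockdown and 18.9 ± 4.23 ppm with scramble (SD, n = 3 each), a ratio of 5.37 and a log2 fold change of 2.38 ± 0.67 (SE, limma, adjusted p = 0.232). The 3 groups share 1 estimate of the spread, and N2_2 widened it: without that library the same fold change had an SE of 0.17 (limma, adjusted p = 1.03e-04). With all libraries limma called 0 of the 35 genes in this comparison, where 0.144% of all genes were called, and 3 had an unadjusted p under 0.05, as had 10.5% of all genes. Without N2_2, Mmp2 was the only gene called, against 8.43% of all genes. Nmnat1 knockdown and scramble libraries did not overlap for 4 genes that were higher (Mmp2, Mmp24, Timp2 and Adamts15) and 5 that were lower (Mmp12, Mmp14, Adamts1, Adamts4 and Timp3). By role, log2 fold changes above 0 were found for 2 of 4 gelatinases, collagenases and stromelysins, 3 of 5 membrane-type MMPs, 1 of 4 other MMPs, 2 of 5 hyalectanases, 0 of 2 procollagen proteases, 5 of 7 other ADAMTS proteases, 1 of 4 ADAMTS-like genes and 3 of 4 inhibitors. The share without overlap among all genes was 24.8%. The median log2 fold change was 0.00 over the 35 genes and 0.00 over all genes tested.

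**Figure D2:**
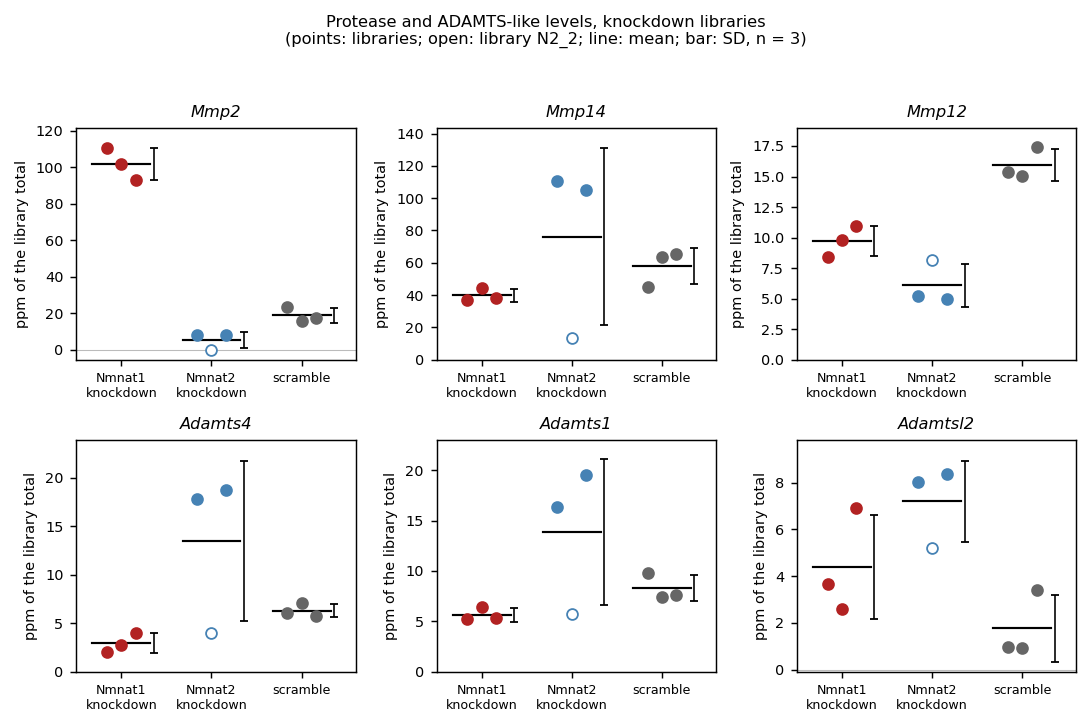
Levels in every knockdown library (y axis: ppm of the library total; points: libraries; line: mean; bar: SD, n = 3; open point: N2_2). Mmp2 lies between 93.1 and 110.4 ppm after Nmnat1 knockdown, at or under 8.05 ppm after Nmnat2 knockdown and between 15.7 and 23.7 ppm with scramble; N2_2 stands apart from the other Nmnat2 knockdown libraries for Mmp14, Adamts1 and Adamts4.

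Marker lists of cell types known to express Mmp2 or Mmp12 in other tissues were summed in the same libraries. The sum of 9 pigment epithelium and ciliary margin genes was 74.4 to 84.3 ppm after Nmnat1 knockdown, 22.1 to 31.2 ppm after Nmnat2 knockdown and 50.5 to 61.3 ppm with scramble, in the same order of groups as Mmp2. This order was not particular to the pigment list, since the rod markers given below also followed it without overlap. So did the 11 cathepsins and cystatins, at 4003 to 4094 ppm after Nmnat1 knockdown. They summed to 1920 to 2881 ppm after Nmnat2 knockdown and 3185 to 3351 ppm with scramble. Most of the pigment epithelium and ciliary margin sum came from Dct and Tyrp1, enzymes of the melanin pathway. Dct stood at 43.4 to 47.9 ppm after Nmnat1 knockdown, 13.3 to 23.7 ppm after Nmnat2 knockdown and 32.7 to 46.0 ppm with scramble. Tyrp1 stood at 21.8 to 28.1 ppm after Nmnat1 knockdown, 3.78 to 5.80 ppm after Nmnat2 knockdown and 5.48 to 9.15 ppm with scramble. Of the 5 genes of this list that were measured, limma called these 2 as higher in Nmnat1 than in Nmnat2 knockdown cells, and 0 against scramble in either arm with all libraries. Rpe65, the visual cycle enzyme that defines mature pigment epithelium, was low in all 3 groups (0.450 to 1.76 ppm after Nmnat1 knockdown, 0.121 to 0.922 ppm after Nmnat2 knockdown and 1.35 to 3.51 ppm with scramble), and Ttr, Best1 and Mlana were at 0 in some libraries. Fibroblast genes (10) summed to 16.9 to 31.7 ppm after Nmnat1 knockdown, 12.9 to 26.4 ppm after Nmnat2 knockdown and 19.7 to 29.1 ppm with scramble, with ranges that overlapped. Pericyte and smooth muscle genes (9) summed to 6.71 to 12.2 ppm after Nmnat1 knockdown, 8.08 to 10.9 ppm after Nmnat2 knockdown and 6.14 to 7.94 ppm with scramble. Endothelial genes (11) summed to 43.0 to 52.0 ppm after Nmnat1 knockdown, 29.4 to 80.7 ppm after Nmnat2 knockdown and 69.6 to 76.1 ppm with scramble. Microglia and macrophage genes (12) summed to 35.2 to 43.2 ppm after Nmnat1 knockdown, 16.8 to 30.9 ppm after Nmnat2 knockdown and 19.3 to 28.2 ppm with scramble. Many of these genes were under 1 ppm in a given library: 5 to 8 of the pericyte and 3 to 6 of the fibroblast genes. For endothelial genes it was 2 to 6 and for microglia and macrophage genes 4 to 10, so that these sums rest on part of each list. The part of these cell types in the levels of Mmp2 was not tested. In sorted mixtures such as these, fewer cells of a type and less RNA per cell cannot be told apart.

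After Nmnat2 knockdown, limma called 0 of 35 genes against scramble with all 9 libraries, where 0.436% of all genes were called, and 5 had an unadjusted p under 0.05 (16.8% of all genes). Without N2_2, which leaves 2 Nmnat2 knockdown libraries, 7 of 35 genes were called, against 15.5% of all genes: Mmp14, Mmp24, Adamts1, Adamts4 and Adamtsl2 were higher and Mmp2 and Mmp12 lower. Mmp12, Mmp2, Adamtsl2 and Adamts9 had the smallest p with all libraries. Adamts4 and Mmp24 were added to the genes described after their values had been seen.

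Mmp12 (chr9:7344381-7369499, plus strand, GRCm38) stood at 5.20, 8.14 and 4.99 ppm in the Nmnat2 knockdown libraries, against 15.4, 15.0 and 17.4 ppm in the scramble libraries. All 3 Nmnat2 knockdown libraries, N2_2 included, lay below every scramble library. The log2 fold change was -1.28 ± 0.28 (SE, limma, adjusted p = 0.0830), and -1.47 ± 0.23 without N2_2 (adjusted p = 0.00269). In the Nmnat1 knockdown libraries, which share the scramble control, Mmp12 stood at 8.42, 9.78 and 10.9 ppm, also below every scramble library (-0.67 ± 0.28, limma, adjusted p = 0.438). Mmp12 shares 157 exon bases (2.17% of its exon bases) with Mmp1b on the opposite strand, which the unstranded libraries cannot tell apart; Mmp1b was at most 1.17 ppm in every knockdown library. Macrophages are the best known source of this elastase. The microglia and macrophage sums given above overlapped scramble after Nmnat2 knockdown and were higher than with scramble after Nmnat1 knockdown, and their part in the levels of Mmp12 was not tested. Mmp2 averaged 5.36 ± 4.55 ppm after Nmnat2 knockdown, against 18.9 ± 4.23 ppm with scramble (SD, n = 3 each; log2 fold change -2.14 ± 0.67, SE, limma, adjusted p = 0.156). Without N2_2 the change of Mmp2 was -1.13 ± 0.19 (limma, adjusted p = 0.00340) and smaller in size, N2_2 holding the lowest value.

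Mmp14 stood at 110.4, 13.1 and 105 ppm in the Nmnat2 knockdown libraries, against 45.2, 63.5 and 65.7 ppm in the scramble libraries. N2_1 and N2_3 were higher than every scramble library and N2_2 lower than every one. The log2 fold change with all libraries was -0.08 ± 0.64 (SE, limma, adjusted p = 0.967), and its sign turned under median-of-ratios scaling (0.15). Without N2_2 Mmp14 was higher, by 0.90 ± 0.17 (limma, adjusted p = 0.00652).

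The hyalectanases Adamts1 and Adamts4 split the libraries in the same way, and so did the sum of 12 retinal progenitor markers, at 777, 311 and 785 ppm in the Nmnat2 knockdown libraries, against 553, 532 and 528 ppm in the scramble libraries. The part of progenitors in these levels was not tested. Adamts4 (chr1:171250421-171260637, plus strand, GRCm38), also known as aggrecanase-1, had 17.8, 3.99 and 18.8 ppm in the Nmnat2 knockdown libraries, against 6.10, 7.11 and 5.73 ppm in the scramble libraries. Adamts1 (chr16:85793827-85803113, minus strand, GRCm38) had 16.4, 5.72 and 19.5 ppm, against 9.79, 7.45 and 7.64 ppm. For both genes N2_1 and N2_3 exceeded every scramble library and N2_2 lay below every one. Without N2_2 the log2 fold change of Adamts4 was 1.40 ± 0.31 (SE, limma, adjusted p = 0.0148) and with it 0.75 ± 0.51 (adjusted p = 0.486). For Adamts1 these values were 1.03 ± 0.26 (limma, adjusted p = 0.0235) and 0.53 ± 0.41 (adjusted p = 0.547).

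Adamtsl2 (chr2:27079379-27108981, plus strand, GRCm38) encodes a secreted protein that binds fibrillin and latent TGF-beta binding proteins. It had 8.01, 5.20 and 8.38 ppm in the Nmnat2 knockdown libraries, against 0.989, 0.908 and 3.43 ppm in the scramble libraries. All Nmnat2 knockdown libraries were above every scramble library. With all 9 libraries, Adamtsl2 was the only measured gene of the family that was higher without overlap, where 4.73% of all genes were. This rests on N2_2: without it Mmp14, Mmp24, Adamts1, Adamts4, Adamts7, Adamts10 and Reck were also higher without overlap. The share of all genes in that setting is not given. The log2 fold change of Adamtsl2 was 1.65 ± 0.45 (SE, limma, adjusted p = 0.121), and 1.84 ± 0.49 without N2_2 (adjusted p = 0.0307). In the Nmnat1 knockdown libraries Adamtsl2 stood at 3.66, 2.61 and 6.91 ppm, with an overlap between the lowest of these and the highest scramble library (1.00 ± 0.45, limma, adjusted p = 0.475). Adamts9, a hyalectanase, had 3.30, 4.71 and 3.05 ppm after Nmnat2 knockdown, against 7.30, 6.22 and 7.85 ppm with scramble, without overlap (-0.80 ± 0.30, limma, adjusted p = 0.223). Mmp24 had 12.1, 1.70 and 16.4 ppm after Nmnat2 knockdown, against 6.48, 6.87 and 7.71 ppm with scramble, again with N2_2 apart. Without N2_2 Mmp24 was higher by 0.92 ± 0.25 (limma, adjusted p = 0.0351); 637 of its exon bases (13.6%) overlap BC029722 on the other strand.

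The family's median log2 fold change after Nmnat2 knockdown was -0.54, beside -0.23 over all genes tested, and 10 of 35 were above 0. With median-of-ratios scaling the medians were -0.37 and -0.04. By role, the numbers above 0 were 0 of 4 gelatinases, collagenases and stromelysins, 2 of 5 membrane-type MMPs, 1 of 4 other MMPs, 2 of 5 hyalectanases, 0 of 2 procollagen proteases, 3 of 7 other ADAMTS proteases, 1 of 4 ADAMTS-like genes and 1 of 4 inhibitors. With all 9 libraries, Nmnat2 knockdown and scramble libraries did not overlap for 10 genes that were lower, where 17.2% of all genes were: Mmp2, Mmp12, Mmp27, Adamts3, Adamts5, Adamts9, Adamts15, Adamts16, Adamtsl3 and Timp4. Of these, Mmp27, Adamts5, Adamts15, Adamts16 and Adamtsl3 averaged under 1 ppm after Nmnat2 knockdown. Such genes pass the minimum mainly through groups in which they are higher, so that both the count and the share favour lower genes. Without N2_2, Mmp17, Adamts2 and Adamtsl4 were also lower without overlap. Markers of retinal cell types also differed between the groups. Rod markers (12) summed to 6475 to 6546 ppm after Nmnat1 knockdown, 2182 to 4066 ppm after Nmnat2 knockdown and 5803 to 6194 ppm with scramble. Amacrine markers (10) summed to 357 to 380.4 ppm after Nmnat1 knockdown, 523 to 1007 ppm after Nmnat2 knockdown and 458 to 469 ppm with scramble. Both sums lay on either side of scramble in the 2 knockdown groups, without overlap. The part of the cell mixture in the changes of the protease genes was not tested.

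**Figure D3:**
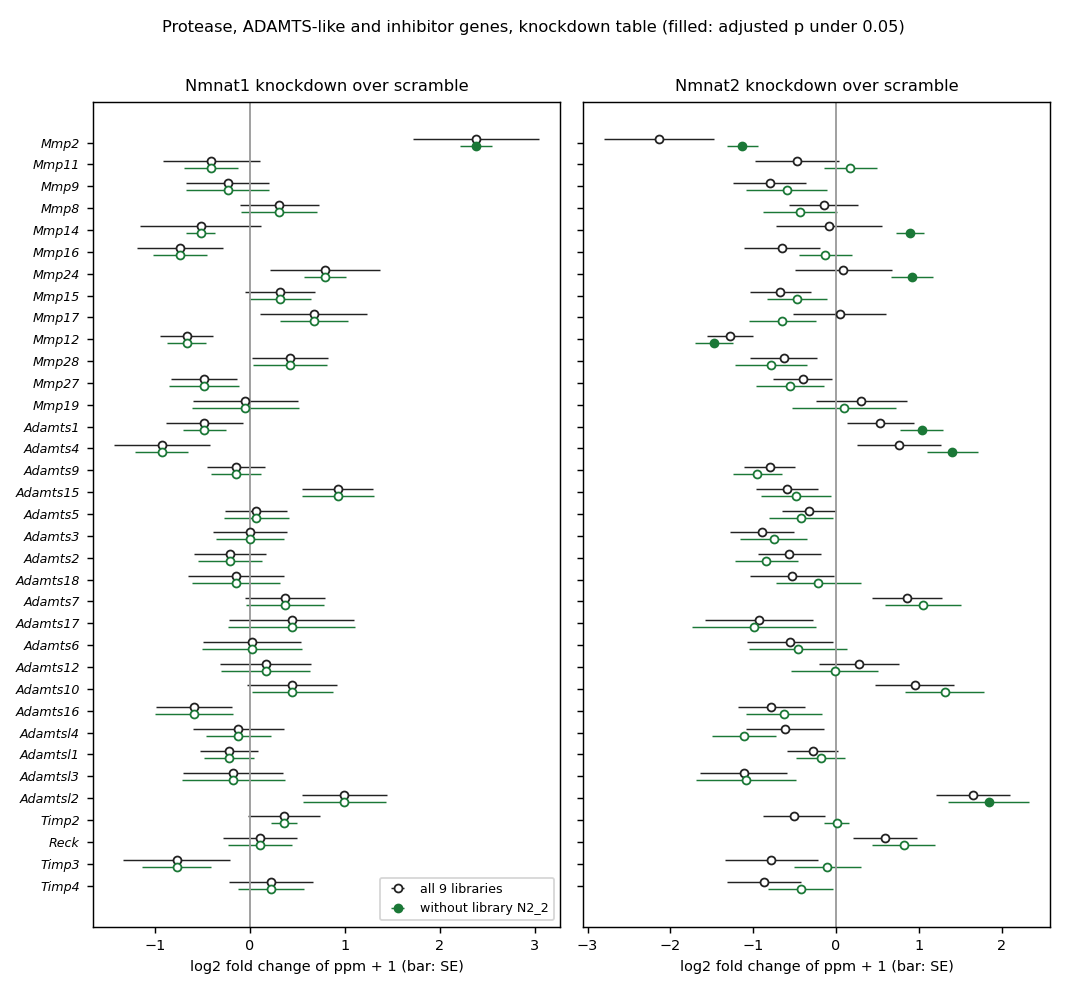
Log2 fold changes of the 35 genes measured in the knockdown table (x axis: log2 fold change of ppm + 1, bars: SE; rows: genes by role) for Nmnat1 knockdown (left) and Nmnat2 knockdown (right) over scramble, with all 9 libraries (black) and without N2_2 (green; filled: adjusted p under 0.05). Without N2_2 only Mmp2, at 2.38, is filled on the left, while 7 genes are on the right, from Mmp12 at -1.47 to Adamtsl2 at 1.84.

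Directly compared, Nmnat1 and Nmnat2 knockdown libraries did not overlap for 12 of 35 genes, all of them higher after Nmnat1 knockdown, where 19.0% of all genes were higher and 6.37% lower without overlap. This 1-sided count rests on N2_2: without it 16 were higher and 10 lower without overlap (Mmp11, Mmp14, Mmp16, Adamts1, Adamts4, Adamts7, Adamts10, Adamtsl2, Timp3 and Reck), beside 31.0% and 20.6% of all genes. The median log2 fold change of the 35 genes was 0.39, beside 0.25 over all genes, and with median-of-ratios scaling 0.27 and 0.06. Without N2_2, 5 genes were called, against 13.5% of all genes. Mmp2 and Mmp12 were higher after Nmnat1 knockdown, and Mmp14, Adamts1 and Adamts4 lower. Their log2 fold changes, Mmp2 apart, were 0.81 ± 0.23 for Mmp12 (SE, limma, adjusted p = 0.0466) and -1.42 ± 0.17 for Mmp14 (adjusted p = 4.36e-04). With median-of-ratios scaling as well the call of Mmp12 was lost (0.67 ± 0.22, limma, adjusted p = 0.0753). Those of the hyalectanases without N2_2 were -1.51 ± 0.26 for Adamts1 (limma, adjusted p = 0.00354) and -2.33 ± 0.31 for Adamts4 (adjusted p = 9.18e-04). With all libraries Mmp14 averaged 39.8 ± 4.01 ppm after Nmnat1 knockdown and 76.2 ± 54.7 ppm after Nmnat2 knockdown (-0.44 ± 0.64, limma, adjusted p = 0.775). Mmp14 stood at 36.8, 44.3 and 38.3 ppm in the Nmnat1 knockdown libraries, all below the scramble libraries. Adamts4 stood at 1.99, 2.73 and 4.04 ppm there and Adamts1 at 5.19, 6.41 and 5.33 ppm, likewise below every scramble library. Sums of several marker lists were also below every scramble library after Nmnat1 knockdown, among them the amacrine and endothelial sums given above. Müller glia markers (14) summed to 2832 to 2970.0 ppm after Nmnat1 knockdown, 2383 to 3925 ppm after Nmnat2 knockdown and 5187 to 5895 ppm with scramble. The 12 progenitor markers summed to 260.1 to 283 ppm after Nmnat1 knockdown, 311 to 785 ppm after Nmnat2 knockdown and 528 to 553 ppm with scramble. Astrocyte markers (8) summed to 21.2 to 32.9 ppm after Nmnat1 knockdown, 59.6 to 69.7 ppm after Nmnat2 knockdown and 53.6 to 66.6 ppm with scramble. The part of these cells in the levels of Mmp2, Mmp14, Adamts1 and Adamts4 was not tested.

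Among low ADAMTS genes, differences from scramble did not pass the test. Adamts15, a hyalectanase, had 3.15, 2.43 and 5.78 ppm after Nmnat1 knockdown and 0.622, 0.387 and 0.837 ppm after Nmnat2 knockdown, against 1.77, 1.35 and 1.16 ppm with scramble. The 3 groups did not overlap, and the log2 fold change of Nmnat1 knockdown over scramble was 0.93 ± 0.37 (SE, limma, adjusted p = 0.420). Adamts17, a protease of the fibrillin matrix, had 2.13, 2.83 and 9.21 ppm after Nmnat1 knockdown and 0.624, 1.08 and 1.10 ppm after Nmnat2 knockdown, against 1.70, 9.27 and 0.776 ppm with scramble. In scramble as in Nmnat1 knockdown cells 1 library lay far above the other 2, so that Adamts17 could not be placed in an order of groups.

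The makeup of the MMP signal differed between the knockdown groups. All 51 genes summed to 324 ± 15.2 ppm after Nmnat1 knockdown, 240.4 ± 98.5 ppm after Nmnat2 knockdown and 261 ± 11.5 ppm with scramble (SD, n = 3 each). The Nmnat2 knockdown mean was lower than with scramble only through N2_2, at 127 ppm, since N2_1 and N2_3 held 291 and 303 ppm, above every scramble library. Mmp2 made up 47.6 to 54.1% of the summed MMP signal in the Nmnat1 knockdown libraries, 0.209 to 4.88% in the Nmnat2 knockdown libraries and 11.7 to 17.2% in the scramble libraries. Mmp14 made up 18.0 to 21.7% of it after Nmnat1 knockdown, 25.9 to 67.0% after Nmnat2 knockdown and 32.7 to 47.9% with scramble. The leading MMP was thus Mmp2 in the 3 Nmnat1 knockdown libraries, and Mmp14 in the scramble libraries. The ratio of Mmp2 to Timp2 was 2.66 to 3.08 after Nmnat1 knockdown, 0.0122 to 0.313 after Nmnat2 knockdown and 0.503 to 0.963 with scramble. These shares are descriptions and were not tested, and they rest on the same libraries as the Mmp2 levels above.

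**Figure D4:**
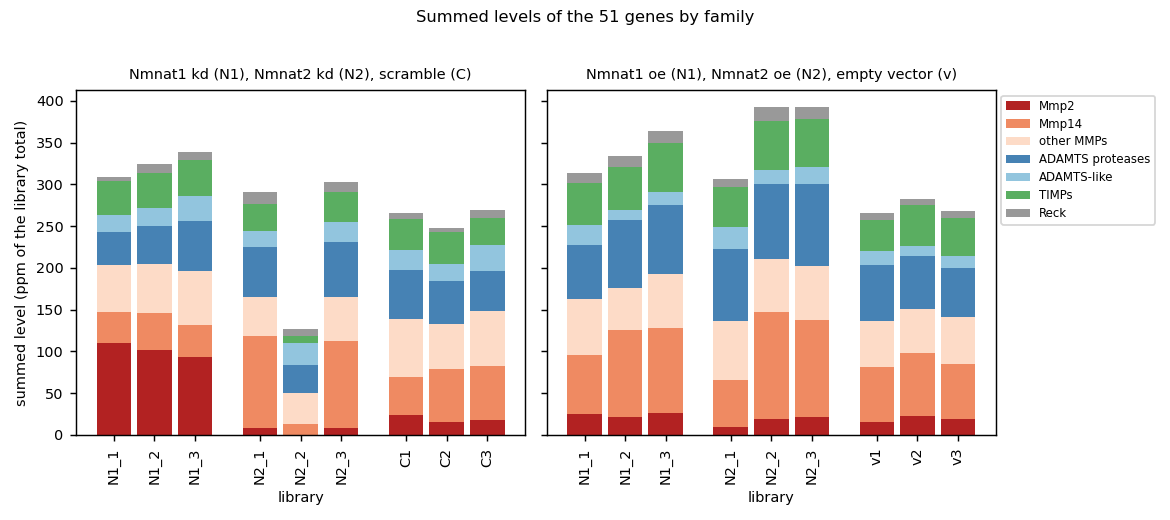
Summed levels of the 51 genes in every library (y axis: ppm of the library total; bars from bottom to top: Mmp2, Mmp14, other MMPs, ADAMTS proteases, ADAMTS-like genes, TIMPs and Reck). The Nmnat1 knockdown bars reach 309 to 339 ppm with Mmp2 as their largest single gene, the Nmnat2 knockdown bars 127 to 303 ppm with N2_2 lowest, and the scramble bars 248 to 269 ppm.

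No inhibitor gene passed the test after either knockdown. Timp2 had 35.9, 34.9 and 35.0 ppm after Nmnat1 knockdown and 25.7, 8.68 and 29.2 ppm after Nmnat2 knockdown, against 24.6, 31.1 and 26.3 ppm with scramble. All Nmnat1 knockdown libraries were above the scramble libraries (0.36 ± 0.38, SE, limma, adjusted p = 0.775), and in Nmnat2 knockdown N2_2 lay below every other library (-0.51 ± 0.38, adjusted p = 0.532). Timp3 (chr10:86300372-86349506, plus strand, GRCm38), an inhibitor bound to the matrix and whose human counterpart is mutated in Sorsby fundus dystrophy, had 1.78, 3.18 and 3.70 ppm after Nmnat1 knockdown and 5.86, 0.480 and 4.30 ppm after Nmnat2 knockdown, against 8.53, 3.93 and 4.80 ppm with scramble. Timp3 lies within Syn3 on the other strand and shares 1733 exon bases (21.3%) with it, and Syn3 averaged 5.02 ppm after Nmnat1 knockdown, 4.11 ppm after Nmnat2 knockdown and 3.00 ppm with scramble. Timp4 had 2.31, 2.85 and 4.22 ppm after Nmnat1 knockdown and 1.38, 0.0143 and 1.81 ppm after Nmnat2 knockdown, against 3.13, 2.53 and 1.87 ppm with scramble, and Timp1 was not measured. Reck (chr4:43875530-43944806, plus strand, GRCm38) had 4.20, 10.4 and 9.94 ppm after Nmnat1 knockdown and 14.0, 7.83 and 12.3 ppm after Nmnat2 knockdown, against 7.61, 5.08 and 8.89 ppm with scramble. With all libraries, Nmnat1 knockdown and Nmnat2 knockdown both overlapped scramble for Reck. None of the 4 inhibitors measured after knockdown passed the test against scramble, with or without N2_2.

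In the overexpression table no gene of the family passed the test with all 9 libraries. Against the empty vector limma called 0 of 35 after Nmnat1 overexpression and 0 of 35 after Nmnat2 overexpression, where 0.121% and 0.55% of all genes were called, and 3 and 6 had an unadjusted p under 0.05, beside 9.57% and 10.3% of all genes. Without the 3 libraries numbered 1, 3 of the 29 genes then measured were called after Nmnat1 overexpression and 5 after Nmnat2 overexpression, against 11.1% and 8.18% of all genes, all of them higher. Mmp14, Adamts4 and Reck were called in both, and Adamts1 and Timp3 after Nmnat2 overexpression only, which is no test of a difference between the groups. Both comparisons share the empty vector libraries, so that their likeness is not independent.

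Mmp14 had 70.8, 105 and 102 ppm in the Nmnat1 overexpression libraries and 55.7, 128 and 116 ppm in the Nmnat2 overexpression libraries, against 66.4, 75.9 and 65.3 ppm in the empty vector libraries. The libraries numbered 1 of both overexpression groups lay within or below the empty vector range, and the other 4 above it. With all libraries the log2 fold change was 0.39 ± 0.27 after Nmnat1 overexpression (SE, limma, adjusted p = 0.753) and 0.44 ± 0.27 after Nmnat2 overexpression (adjusted p = 0.657). Without the libraries numbered 1 it was 0.55 ± 0.09 (limma, adjusted p = 0.0103) and 0.78 ± 0.09 (adjusted p = 0.00265) for Nmnat1 and Nmnat2 overexpression. Adamts4 followed the same split, with 7.29, 23.9 and 21.7 ppm after Nmnat1 overexpression and 3.19, 18.4 and 17.1 ppm after Nmnat2 overexpression, against 8.31, 7.48 and 7.63 ppm with the empty vector. Without the libraries numbered 1 Adamts4 was higher by 1.47 ± 0.14 (limma, adjusted p = 9.12e-04) and 1.13 ± 0.14 (adjusted p = 0.00318) for Nmnat1 and Nmnat2 overexpression. With them its fold changes were 0.93 ± 0.57 and 0.37 ± 0.57 (limma, adjusted p = 0.694 and 0.894).

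**Figure D5:**
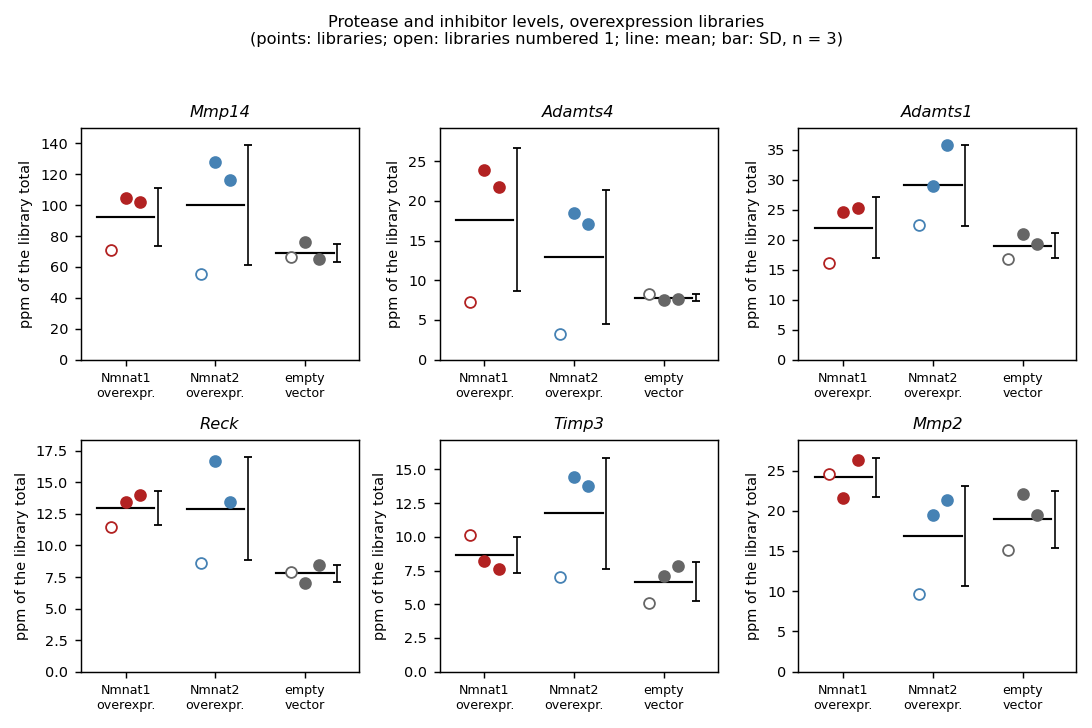
Levels in every overexpression library (y axis: ppm of the library total; points: libraries; open points: libraries numbered 1; line: mean; bar: SD, n = 3). For Mmp14 and Adamts4 the open points of the overexpression groups lie within or below the empty vector range and the filled ones above it, whereas for Reck all 6 overexpression libraries, from 8.61 to 16.7 ppm, lie above the empty vector libraries.

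Reck encodes the membrane-anchored inhibitor of MMPs, which in mice is also needed for vessel growth in the brain. It had 11.4, 13.5 and 14.0 ppm after Nmnat1 overexpression and 8.61, 16.7 and 13.4 ppm after Nmnat2 overexpression, against 7.86, 7.04 and 8.45 ppm with the empty vector. All 6 overexpression libraries were above every empty vector library. The log2 fold changes were 0.67 ± 0.24 (SE, limma, adjusted p = 0.362) and 0.62 ± 0.24 (adjusted p = 0.377) for Nmnat1 and Nmnat2 overexpression, and without the libraries numbered 1 0.76 ± 0.18 and 0.88 ± 0.18 (limma, adjusted p = 0.0339 and 0.0248). Adamtsl2 was likewise above every empty vector library in all 6, with 3.13, 3.88 and 2.50 ppm after Nmnat1 overexpression and 3.14, 3.43 and 4.14 ppm after Nmnat2 overexpression, against 1.41, 1.56 and 1.33 ppm (0.77 ± 0.28 and 0.90 ± 0.28, limma, adjusted p = 0.380 and 0.244). Adamts16 had 3.45, 3.83 and 1.70 ppm after Nmnat1 overexpression and 2.74, 3.75 and 2.72 ppm after Nmnat2 overexpression, against 1.09, 1.29 and 1.42 ppm with the empty vector, again without overlap (0.78 ± 0.32 after Nmnat1 overexpression, limma, adjusted p = 0.461). Genes without overlap were 5 after Nmnat1 overexpression (Mmp24, Adamts10, Adamts16, Adamtsl2 and Reck) and 8 after Nmnat2 overexpression (Mmp16, Adamts1, Adamts10, Adamts16, Adamts17, Adamts18, Adamtsl2 and Reck), all higher. Among all genes 7.74% and 8.6% were higher without overlap. The shares of all genes that were lower are not given, so that the common direction cannot be set against all genes.

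Adamts1 had 16.2, 24.6 and 25.3 ppm after Nmnat1 overexpression and 22.4, 29.0 and 35.8 ppm after Nmnat2 overexpression, against 16.7, 21.0 and 19.4 ppm with the empty vector. All Nmnat2 overexpression libraries were above the empty vector libraries (0.57 ± 0.22, SE, limma, adjusted p = 0.374), and the change was 0.65 ± 0.13 without the libraries numbered 1 (adjusted p = 0.0259). Adamts17 had 0.720, 1.52 and 0.680 ppm after Nmnat1 overexpression and 5.08, 1.74 and 1.50 ppm after Nmnat2 overexpression, against 0.538, 0.700 and 0.697 ppm with the empty vector, and was above it without overlap after Nmnat2 overexpression (1.08 ± 0.40, limma, adjusted p = 0.363). Mmp2, which set the knockdown groups apart, had 24.6, 21.6 and 26.4 ppm after Nmnat1 overexpression and 9.71, 19.5 and 21.4 ppm after Nmnat2 overexpression, against 15.1, 22.1 and 19.5 ppm with the empty vector. Each overexpression group overlapped the empty vector, with log2 fold changes of 0.35 ± 0.27 and -0.21 ± 0.27 (SE, limma, adjusted p = 0.788 and 0.865), while all Nmnat1 overexpression libraries lay above the Nmnat2 overexpression libraries (0.56 ± 0.27, adjusted p = 0.953). Mmp12, at 10.9, 4.55 and 4.20 ppm after Nmnat1 overexpression and 21.4, 5.85 and 5.55 ppm after Nmnat2 overexpression, against 10.1, 5.64 and 6.13 ppm with the empty vector, was highest in the library numbered 1 of each of the 3 groups.

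Of the TIMPs, Timp2 had 37.5, 41.3 and 49.3 ppm after Nmnat1 overexpression and 37.7, 43.1 and 42.8 ppm after Nmnat2 overexpression, against 29.4, 38.5 and 36.9 ppm with the empty vector. Both groups overlapped the empty vector (0.28 ± 0.15 and 0.24 ± 0.15, SE, limma, adjusted p = 0.609 and 0.657). Timp3 had 10.1, 8.23 and 7.61 ppm after Nmnat1 overexpression and 7.01, 14.4 and 13.8 ppm after Nmnat2 overexpression, against 5.06, 7.10 and 7.85 ppm with the empty vector, and without the libraries numbered 1 it was higher after Nmnat2 overexpression by 0.83 ± 0.17 (limma, adjusted p = 0.0248). The overlapping Syn3 averaged 4.85, 5.91 and 4.75 ppm after Nmnat1 overexpression, after Nmnat2 overexpression and with the empty vector. Timp1 had 1.55, 0.516 and 1.76 ppm after Nmnat1 overexpression and 0.739, 1.11 and 1.05 ppm after Nmnat2 overexpression, against 0.114, 1.99 and 0.596 ppm with the empty vector. Timp4 had 1.26, 0.829 and 0.731 ppm after Nmnat1 overexpression and 2.90, 1.07 and 0.371 ppm after Nmnat2 overexpression, against 2.51, 2.27 and 0.746 ppm with the empty vector. Neither Timp1 nor Timp4 separated a group from the empty vector.

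Across the family, 22 of 35 genes had a log2 fold change above 0 after Nmnat1 overexpression and 28 of 35 after Nmnat2 overexpression. The medians were 0.16 and 0.24, beside -0.04 and 0.06 over all genes tested. By role, the numbers above 0 after Nmnat2 overexpression were 2 of 4 gelatinases, collagenases and stromelysins, 3 of 5 membrane-type MMPs, 2 of 2 other MMPs, 5 of 5 hyalectanases, 1 of 2 procollagen proteases, 8 of 8 other ADAMTS proteases, 3 of 4 ADAMTS-like genes and 4 of 5 inhibitors. The 51 genes summed to 337 ± 25.2 ppm after Nmnat1 overexpression, 364 ± 50.1 ppm after Nmnat2 overexpression and 272 ± 9.26 ppm with the empty vector (SD, n = 3 each). Between the overexpression groups limma called 0 of 35 genes, where 0.0193% of all genes were called, and 0 had an unadjusted p under 0.05 (4.46% of all genes). Without the libraries numbered 1 limma again called 0, where 0.291% of all genes were called, and 6 had an unadjusted p under 0.05 (14.6% of all genes). In the same libraries the sum of 12 rod markers was 2979 to 5148 ppm after Nmnat1 overexpression, 2917 to 3953 ppm after Nmnat2 overexpression and 6006 to 6328 ppm with the empty vector. Astrocyte markers (8) summed to 73.2 to 83.4 ppm after Nmnat1 overexpression, 43.8 to 98.9 ppm after Nmnat2 overexpression and 47.2 to 56.9 ppm with the empty vector. Amacrine markers (10) summed to 489 to 670.3 ppm after Nmnat1 overexpression, 414 to 631 ppm after Nmnat2 overexpression and 353 to 400.3 ppm with the empty vector. Ganglion cell markers (10) summed to 25.4 to 41.3 ppm after Nmnat1 overexpression, 32.6 to 46.4 ppm after Nmnat2 overexpression and 19.5 to 24.4 ppm with the empty vector. As for Reck and Adamtsl2, all 6 overexpression libraries were above every empty vector library for these 2 sums. Progenitor markers (12) summed to 591, 1015 and 973 ppm after Nmnat1 overexpression and 444, 956 and 994 ppm after Nmnat2 overexpression, against 529, 682 and 639 ppm with the empty vector, with the overexpression libraries numbered 1 within or below the empty vector range, as for Mmp14. Endothelial markers (11) summed to 84.2 to 133 ppm after Nmnat1 overexpression, 82.9 to 153 ppm after Nmnat2 overexpression and 98.1 to 107 ppm with the empty vector. Their part in the protease levels was not tested.

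Genes around the family were followed in 6 lists of 84 genes: membrane-bound ADAM sheddases, the plasminogen and serpin system, cathepsins and cystatins, the lectican matrix, collagen and basement membrane substrates, and genes of MMP clearance, induction and docking. Of these, 68 were measured in the knockdown table and 66 in the overexpression table. Against its control, limma called 0 of them in any of the 4 knockdown and overexpression groups with all libraries. The numbers at an unadjusted p under 0.05 were 4 and 11 after Nmnat1 and Nmnat2 knockdown, beside 10.5% and 16.8% of all genes. After Nmnat1 and Nmnat2 overexpression they were 11 and 9, beside 9.57% and 10.3% of all genes. Between the knockdown groups 3 cathepsins, lysosomal proteases, were higher after Nmnat1 knockdown and 0 list genes lower, where 2.06% of all genes were called in either direction. The count of list genes was 2 (Ctsd and Ctsf) and 0 with median-of-ratios scaling, 9 and 5 without N2_2, and 5 and 7 with both changes. Without N2_2, 13.5% of all genes were called in either direction. Ctsd averaged 467 ppm after Nmnat1 knockdown and 235 ppm after Nmnat2 knockdown (1.02 ± 0.19, SE, limma, adjusted p = 0.0263). Ctsf was higher by 0.95 ± 0.17 (adjusted p = 0.0222) and Ctsz by 0.86 ± 0.19 (adjusted p = 0.0461), both by limma; these 3 were named after their values had been seen.

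Without N2_2, 6 of 66 measured genes of these lists were higher and 1 lower after Nmnat1 knockdown, and 2 were higher and 8 lower after Nmnat2 knockdown, where 8.43% and 15.5% of all genes were called in either direction; with median-of-ratios scaling as well, the counts after Nmnat2 knockdown were 7 and 5. After Nmnat1 knockdown the sheddases Adam9 (1.08 ± 0.20, SE, limma, adjusted p = 0.0109) and Adam10 (0.47 ± 0.11, adjusted p = 0.0294) and Furin, which activates membrane-type MMPs (0.98 ± 0.15, adjusted p = 0.00399), were higher. Sparc, a matrix glycoprotein, was lower, with 182 ppm after Nmnat1 knockdown and 329 ppm with scramble (-0.85 ± 0.08, limma, adjusted p = 4.62e-04). After Nmnat2 knockdown Cst3, the cathepsin inhibitor cystatin C, was lower (-1.22 ± 0.06, limma, adjusted p = 5.35e-06), and 5 of the cathepsins measured with it. Ncan, the proteoglycan neurocan that hyalectanases cut, was higher (1.02 ± 0.28, limma, adjusted p = 0.0356).

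Without the libraries numbered 1, 7 of 62 measured list genes were higher and 5 lower after Nmnat1 overexpression, and 8 higher and 4 lower after Nmnat2 overexpression, where 11.1% and 8.18% of all genes were called in either direction. Of the 4 lecticans, substrates of hyalectanases, Bcan, Ncan and Vcan were measured, and Bcan and Ncan were higher in both groups: Bcan, brevican, by 1.03 ± 0.25 after Nmnat1 and 1.52 ± 0.25 after Nmnat2 overexpression (SE, limma, adjusted p = 0.0377 and 0.0101), and Ncan by 1.39 ± 0.19 and 1.29 ± 0.19 (adjusted p = 0.00467 and 0.00705). Vcan, versican, was not called (-0.29 ± 0.25 and 0.31 ± 0.25, limma, adjusted p = 0.504 and 0.551). Lrp1, the endocytic receptor that clears MMPs, ADAMTS proteases and TIMPs, was higher by 0.89 ± 0.16 and 0.94 ± 0.16 (limma, adjusted p = 0.0138 and 0.0130). Plat, tissue plasminogen activator, was higher by 0.59 ± 0.12 and 0.90 ± 0.12 (limma, adjusted p = 0.0192 and 0.00371). Cst3 was lower in both, with log2 fold changes of -1.29 ± 0.04 and -0.97 ± 0.04 (limma, adjusted p = 1.00e-05 and 3.76e-05). Each of these groups then holds 2 libraries, and the genes of these lists were named after their values had been seen.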

How the data were processed

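The 51 genes, the marker and pathway lists and the alternatives were chosen with earlier results of these data known. The submitters' processing notes list Salmon 0.11.3, sleuth 0.30.0 and the GRCm38.p6 build without saying what each was used for. The authors' 2 deposited tables hold a length-scaled signal with 1 column per library. Its unit is not stated in the labels or headers, and the columns sum to many times 1000000. At a tolerance of 0.1, 73.1% to 82.8% of low values in the knockdown libraries and 80.1% to 83.3% in the overexpression libraries lay on steps of single reads, against 20% by chance; this was too few to recover reads for nearly all genes, so no count test was run. Fold changes were assumed at the design stage to be of TPM, and the same test was kept on the rescaled values. cDNA was made with SMART-Seq v4 and libraries with Nextera DNA Flex, which do not mark the strand, per the labels.

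Values were rescaled so that every library totals 1000000 (ppm). Genes with at least 1 ppm in 3 of 9 libraries were kept (22233 and 20725), and limma 3.58.1 (R 4.3.3) was run on log2(ppm + 1), with the 3 groups of a table in 1 fit, a mean-variance trend, two-sided tests, Benjamini-Hochberg adjustment over all genes kept and a threshold of 0.05. On this scale the change of low genes is understated. No test crosses the tables. The scripts were tested on simulated data. Given in every library were Mmp2, Mmp14, the TIMPs, Reck, called genes and the 4 genes with the smallest p against each control; others were named after their values were seen. Columns of the knockdown table show groups but no sample. Same-numbered overexpression and empty vector libraries deviated together with correlations of 0.0271 to 0.217, not all above 0.1, so they were not taken as paired. Same-numbered Nmnat1 and Nmnat2 overexpression libraries correlated at 0.139 to 0.461. Between the libraries numbered 2 and 3, differently numbered ones correlated at 0.165 and 0.242. Only the libraries numbered 1, at 0.461, were thus set apart as a pair. Coordinates are from GENCODE M21 (GRCm38) and start regions from RefSeq (GRCm38.p6). Figures and tables used Python 3.11.15, pandas 2.3.3, scipy 1.17.1 and matplotlib 3.10.9.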

Additional observations from a re-analysis of the deposited data

Results flagged for a closer look

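For Mmp2 the effects of the 2 knockdown arms differed when the arms were compared directly: the log2 difference of Nmnat1 knockdown over Nmnat2 knockdown was 4.52 (limma, adjusted p = 0.00832), with 3 of 3 Nmnat1 knockdown libraries above and 3 of 3 Nmnat2 knockdown libraries below the scramble range. Without N2_2 it was 3.51 (limma, adjusted p = 4.11e-06), and over single libraries left out it ranged from 3.51 to 5.03, with the call lost without any 1 of the Nmnat1 knockdown libraries. Dixon's test for an outlying library was not applied to groups of 3.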

How the results depend on the processing

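With the libraries as they are, the number of genes past the threshold was 0 in each comparison with a control and 1 between the knockdown groups. The counts below are given without the shares of all genes called in the same settings. They show how calls in the family move with the processing, and cannot set the family against all genes. After Nmnat1 knockdown it was 1 with a pseudocount of 5 ppm, in a fit on the 2 groups alone, with array weights, and with median-of-ratios scaling without N2_2; leaving out single libraries gave 0 to 1. After Nmnat2 knockdown it was 1 with a filter at 5 ppm, 10 with array weights (5 higher and 5 lower) and 7 with median-of-ratios scaling without N2_2, and 0 to 7 when single libraries were left out. Between the knockdown groups it was 0 in a fit on the 2 groups alone, 13 with array weights, 4 with median-of-ratios scaling without N2_2 (Mmp12 no longer called), and 0 to 5 over single libraries left out. After Nmnat1 overexpression it was 2 with array weights and 3 without the libraries numbered 1, under either scaling. After Nmnat2 overexpression it was 5 in each of these settings, and 0 to 1 over single libraries, the 1 without N2_1. With a replicate block it stayed at 0 in all 3 overexpression comparisons, with 5, 9 and 3 genes at an unadjusted p under 0.05, and the block changed no call among the 51 genes. Of the pathway list genes it called 2, Ncan and Lrp1, as higher in each comparison with the empty vector, against 0 without it.

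The log2 fold change of Mmp14 after Nmnat2 knockdown turned positive with median-of-ratios scaling (0.15), quantile normalization (0.032), array weights (0.84) and median-of-ratios scaling without N2_2 (1.05), and ranged from -0.59 to 0.90 over single libraries left out, with 0.011 without C3. Over single libraries left out, that of Mmp14 between the knockdown groups ranged from -1.42 (without N2_2) to 0.073 (without N2_1), with 0.036 without N2_3. Mmp24 after Nmnat2 knockdown ranged from -0.43 (without N2_3) to 0.92 (without N2_2), and Adamts4 after Nmnat2 overexpression from -0.015 (without N2_2) to 1.09 (without N2_1). Of 711 alternatives run on 36 single-gene results, 635 kept direction and side of the threshold. Of the rest, 61 passed it newly, 4 lost it and 11 changed sign, and the cause was not tested. Only 1 of the 36, Mmp2 between the knockdown groups, was past the threshold with the libraries as they are, and the 4 losses were its own. For every other result, keeping the side means that an uncalled gene stayed uncalled. Leaving out a library of a group not compared also cannot change the fold change. The 635 are thus no measure of robust calls. The combined scaling and library settings were chosen after seeing the data. Depth limits genes near 1 ppm, and 2 libraries in a group limit every result without N2_2 or the libraries numbered 1.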
